A study of Mus musculus with 4 samples.

Results

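The histone genes of the mouse were measured in embryonic fibroblasts and in an induced pluripotent stem cell clone, each against embryonic stem cells. Members were all non-control probes of the array whose gene name starts with Hist1h, Hist2h, Hist3h or Hist4h, and the probes of the separate genes H1f0, H2afx, H2afy, H2afz, H3f3a and H3f3b. They came to 62 probes of 42 genes, out of 41174 gene probes and 27745 gene names. Each probe is a 60-base oligonucleotide. On all 4 two-colour Agilent arrays the green dye (Cy3) marked RNA of CGR8.8, an embryonic stem (ES) cell line grown in 1000 IU/ml LIF, a cytokine that keeps such cells undifferentiated. The red dye (Cy5) marked RNA of mouse embryonic fibroblasts (MEFs) taken after several passages on 2 arrays, and of the induced pluripotent stem (iPS) cells on the other 2. The iPS cells were 1 clone, kept in the same LIF and harvested 30 days after transduction. The labels number 2 biological replicates in each group but do not say that the cultures were separate, so a p-value speaks only of the spread among these samples, perhaps a technical one. Values are log2 ratios of red over green, so 1 is a doubling over ES cells and -1 a halving.

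Histones package DNA: an octamer of the core histones H2A, H2B, H3 and H4 forms the nucleosome, and the linker histone H1 binds where DNA enters and leaves it. Most histone protein is made in S phase from gene clusters whose messages have no introns and no poly(A) tail, and end instead in a conserved stem-loop bound by Slbp. Some cluster genes can also make a longer, polyadenylated message that ends farther downstream. The separate variant genes (H1f0, H2afx, H2afy, H2afz, H3f3a, H3f3b) can make polyadenylated messages, and most are used outside S phase too. ES cells divide fast and spend much of their cycle in S phase. The labels name a commercial Agilent amplification kit, which by its design starts copying from the poly(A) tail, so the arrays did not read tailless messages in the usual way.

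Where a probe lies in the message is central to the values below, so the sequences that show it come first, from the array files, with positions on build mm8. Among the histone probes, 3 touch the stem-loop, searched as GGCTCTNNNNAGAGCC on the probe strand. The 16-base element is whole in the Hist1h3a probe (chr13:23769352-23769411, minus strand). The Hist1h2ab probe (chr13:23758988-23759047, plus strand) stops 11 bases into it, and the Hist1h2ae probe (chr13:23578085-23578144, minus strand) starts with its last 12 bases. Each is shown over 30 bases, 5′ to 3′, with stem-loop bases in capitals.
Hist1h2ab, last 30 bases: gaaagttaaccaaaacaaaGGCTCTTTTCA
Hist1h3a, last 30 bases: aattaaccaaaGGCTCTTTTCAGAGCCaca
Hist1h2ae, first 30 bases: CTTTTCAGAGCCattcacttaattcagtaa
Cluster probes were therefore split by where they start in their target record: in the message body (up to base 500, or 700 for the longer H1 messages) or 3′ of it. This split was made after the array files had been seen. Of the 47 cluster probes, 29 lay in the body and 15 lay 3′ of it. The other 3 (1 named Hist3h2a, 2 named Hist2h2aa2) were designed on cDNA records of the strand opposite to the gene. Body and 3′ probes of 2 genes gave opposite calls, so both are shown for each.
Hist1h1d body (base 549, chr13:23563048-23563107, plus strand): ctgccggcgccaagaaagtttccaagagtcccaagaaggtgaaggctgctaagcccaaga
Hist1h1d 3′ (base 2300, chr13:23564799-23564858, plus strand), first 30 bases: tgtgtaatcagatgtttgtagaatactctg
Hist3h2a body (base 200, chr11:58771080-58771139, plus strand): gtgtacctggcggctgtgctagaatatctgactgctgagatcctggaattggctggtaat
Hist3h2a 3′ (base 767, chr11:58771647-58771706, plus strand), first 30 bases: aaggttctggtttagatgctagtgtttcta

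Histone genes of a class are nearly alike, so body probes of different genes can catch each other's messages. The H2B body probes show this: over 60 shared bases the Hist1h2bk and Hist1h2bm probes differ at 2, and over 58 the Hist1h2bk and Hist3h2bb probes differ at 3. Capitals mark bases that differ from Hist1h2bk or, in Hist1h2bk itself, from either of the others.
Hist1h2bk (chr13:22043524-22043583, plus strand): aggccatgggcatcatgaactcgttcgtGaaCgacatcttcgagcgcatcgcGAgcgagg
Hist1h2bm (chr13:21729735-21729794, plus strand): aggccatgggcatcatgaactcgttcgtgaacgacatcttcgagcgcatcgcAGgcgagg
Hist3h2bb (chr11:58770390-58770449, minus strand): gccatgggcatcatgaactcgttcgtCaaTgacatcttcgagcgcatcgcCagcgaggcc
The same holds where H2A begins. The Hist1h2ai and Hist1h2ak probes share 55 of 60 bases, and Hist1h2ai shares 48 of 58 with Hist2h2aa1. The array places the Hist1h2ai probe on the minus strand, while RefSeq has that gene on the plus strand. The position printed for it may thus be that of another H2A copy, and its value may belong to that copy. Capitals mark bases that differ from Hist1h2ai or, in Hist1h2ai, from either of the others.
Hist1h2ai (chr13:21794624-21794683, minus strand): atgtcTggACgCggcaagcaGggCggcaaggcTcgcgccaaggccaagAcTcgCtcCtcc
Hist1h2ak (chr13:21761233-21761292, minus strand): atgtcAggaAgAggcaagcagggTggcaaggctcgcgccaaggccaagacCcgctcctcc
Hist2h2aa1 (chr3:96330984-96331043, plus strand): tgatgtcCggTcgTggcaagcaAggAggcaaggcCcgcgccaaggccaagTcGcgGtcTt
The Hist1h4d and Hist1h4f probes were identical over the 50 bases they share, and the Hist1h2af and Hist1h2ak probes over 40. Values of such probes are not independent of each other, and a body value belongs to its gene only as far as its sequence does.

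Of the 62 probes, 47 (35 genes) had a value on all 4 arrays and entered the fit over 24874 probes. A further 11 lacked a value on some array because the scanner software marked the spot as an outlier, and 4 were not well above background on all arrays of any RNA. No member was saturated. The members that passed could do so through the RNA where they were bright. The arrays themselves had 61.1 to 63.4% of spots well above background in either channel, and replicates correlated at 0.99 over the tested probes. All 4 arrays lay on 1 slide read in 1 scan. Dyes were not swapped, so in a ratio over ES cells a dye effect and a cell difference cannot be told apart for a given probe. Markers followed the labels: 7 of 7 fibroblast genes were higher in MEFs and 6 of 6 tested pluripotency genes were lower there. In the iPS cells Nanog was at 2.27 and Pou5f1 at -1.35, 5 of 5 germ cell genes were higher than in ES cells, and no fibroblast gene was higher (6 of 7 lower). MEFs also held more of 2 of 4 macrophage markers (Lyz2 at 4.88, Emr1 at 1.36) and of 1 of 2 tested endothelial ones (Emcn at 5.07), while the macrophage marker Cd68 was at -1.69. In iPS cells Cd68 was at -1.05, and of the tested endothelial markers Pecam1 was at 2.09 while Emcn was at 0.07 and not called. The part of these other cells in the histone values was not tested.

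In MEFs most cluster probes in the message body read lower than in ES cells, and most probes 3′ of it read higher. Some of the 3′ probes start only just past the split, such as Hist1h2bp at base 510 and Hist1h4i at base 539. The split rests on the start in the record alone. A probe was called where limma gave a Benjamini-Hochberg adjusted p under 0.05 over all 24874 probes and the change was at least 2-fold. By that rule 12 of the 47 tested histone probes rose in MEFs (12.8% of all tested probes did) and 22 fell (12.4% of all). The other 13 were not called. The median histone ratio was -0.87, against -0.01 over all tested probes. Among body probes outside H2B, 16 of 18 fell and none rose, and their median was -1.65 on the array of MEF replicate 1 and -1.55 on that of replicate 2. Among 3′ probes, 8 of 13 rose and 1 fell, with medians of 1.46 and 1.45. Of these, Hist1h2be, Hist1h2ac and Hist1h1e passed the filter through MEFs alone, which favours a ratio above 0. These counts rest on fitting the background over unmarked spots: with normexp fitted over all spots, limma called no probe of the whole array in MEFs, histone or other. There 2392 of 24874 probes, 20 of them histone probes, had an unadjusted p under 0.05, and none of the named probes called here changed sign. The medians then were -1.16 for body probes outside H2B and 0.73 for 3′ probes. With arrays centred on their median in place of loess, 14 histone probes fell, 11 of the 18 body probes outside H2B and 1 of the 6 H4 probes among them, while the share of risers among all called probes went from 50.6% to 70%.

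**Figure D1:**
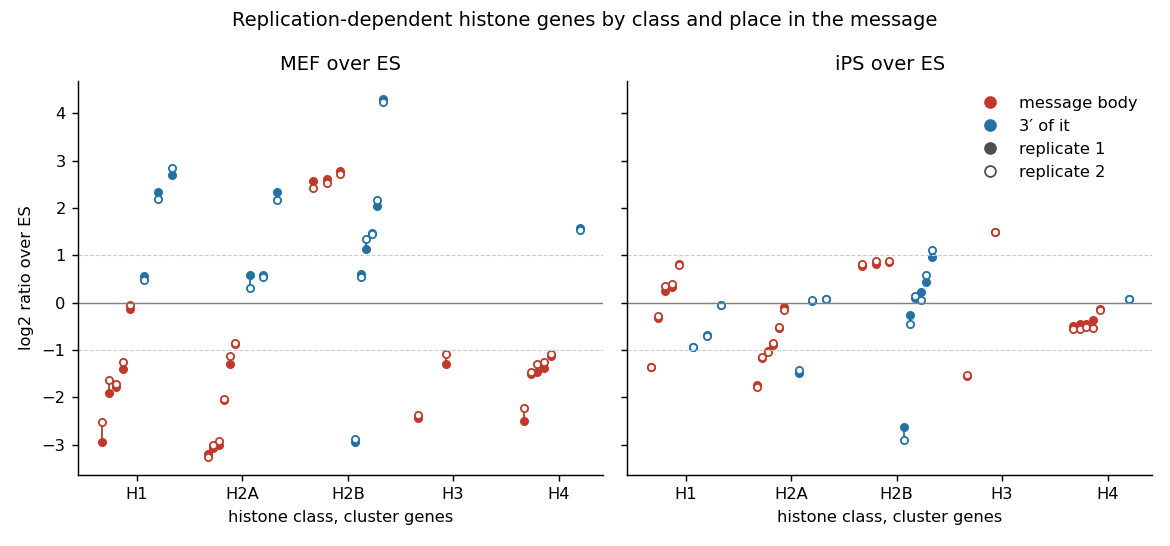
Log2 ratio over ES cells (vertical axis) of the tested sense probes of cluster genes by histone class, MEFs left and iPS cells right; each pair of points is 1 probe, filled for replicate 1 and open for replicate 2, red for the message body and blue for 3′ of it, with dashed lines at 2-fold. In MEFs body probes outside H2B lie at or below 0 and 3′ probes mostly above it, and in iPS cells both lie closer to 0.

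The largest falls were at the start of the H2A coding sequence. H2A is the core histone at the face of the nucleosome that binds other proteins. Hist1h2ak read -3.19 and -3.26 on the MEF arrays, 0.107 of the ES level (log2 ratio -3.23 ± 0.05 SE, n = 2, limma adjusted p = 5.4e-09). Hist1h2af read -3.07 and -3.01. Hist1h2ai had a log2 ratio of -2.97 ± 0.05 (SE, n = 2). Both arrays of each lay well below the ES level. The related Hist2h2aa1 probe read only -0.87 and -0.86 and was not called, although it shares most of its bases with Hist1h2ai. Hist1h2ab, whose probe ends in the stem-loop, read -1.30 and -1.13 and fell. The 2 Hist2h2ac probes and a second Hist1h2af probe lacked values on some arrays. Their remaining MEF values lay between -1.61 and -1.26. The array places the Hist2h2ac probe at base 247 on the strand opposite to that gene in RefSeq, close to the Hist2h2aa1 probe, so it may read that locus. H3, the core histone with the most modified tail, had 2 tested cluster probes, and both fell: Hist1h3d read -2.44 and -2.38, and Hist1h3a, with the whole stem-loop, -1.30 and -1.09. Hist2h3c1, without a value on the array of iPS replicate 1, read -2.29 and -2.20. All 5 tested body probes of H4, a highly conserved histone, fell, from -2.37 at Hist1h4d (base 36) to -1.10 at Hist4h4. The second Hist1h4d probe (base 194) read -1.52 and -1.46, close to its near twin Hist1h4f at -1.46 and -1.30.

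Past the message body the picture turned. The largest rise among all histone probes was at Hist1h2bc, an H2B gene, whose probe starts at base 597 (chr13:23699815-23699874, plus strand) and begins as shown here because it is the extreme of the set.
Hist1h2bc 3′, first 30 bases: agaaagacacacagatgtagaaaatgagaa
It read 4.30 and 4.25 in MEFs, 19.4 times the ES level (log2 ratio 4.28 ± 0.05 SE, n = 2, limma adjusted p = 3.8e-09). With normexp fitted over all spots, or marked spots kept, the log2 ratio was 2.75 and not called. Hist1h1c, Hist3h2a, Hist1h1d, Hist2h2bb, Hist1h4i, Hist2h2be and Hist1h2be made up the other 3′ risers, with mean ratios from 2.77 down to 1.23. In ES cells the Hist1h2be probe was not well above background, so its rise was at least 2.22-fold, which sets the MEF mean against the ES signal or the lowest detected signal of the array, whichever is higher. Hist1h2bp, Hist1h2ae, Hist1h1e and Hist1h2ac had 3′ ratios of 0.44 to 0.57 and were not called. The exception was Hist3h2ba, an H2B gene read at base 535, which fell to -2.94 and -2.89. The 3′ group was therefore not uniform, and the start base alone did not order it.

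The contrast was also seen within single genes. Hist1h1d, a somatic linker histone, read -1.40 and -1.26 at base 549 in MEFs, and 2.33 and 2.18 at base 2300. Both were called, in opposite directions (log2 ratios -1.33 ± 0.05 and 2.25 ± 0.05 SE, n = 2). Hist3h2a, an H2A gene outside the large cluster, read -2.07 and -2.04 at base 200 and 2.34 and 2.17 at base 767. The probe for the opposite strand of Hist3h2a read -1.21 and -1.08 and also fell, and another Hist3h2a probe at base 2830 was not well above background in any RNA. Hist1h1e, another somatic linker histone, read -2.95 and -2.52 at base 661. At base 1501 of a different record it read 0.57 and 0.47, was well above background in MEFs alone, and was not called. The Hist1h1e starts are therefore not on 1 base scale. These 3 genes were the cluster genes with tested probes on both sides of the split. In each the 3′ probe lay above 0 and the body probe below it. The Hist1h1e 3′ probe passed the filter through MEFs alone, so its place above 0 was largely set by the filter and adds no support. The arrays do not say whether both probes read 1 message or several.

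**Figure D2:**
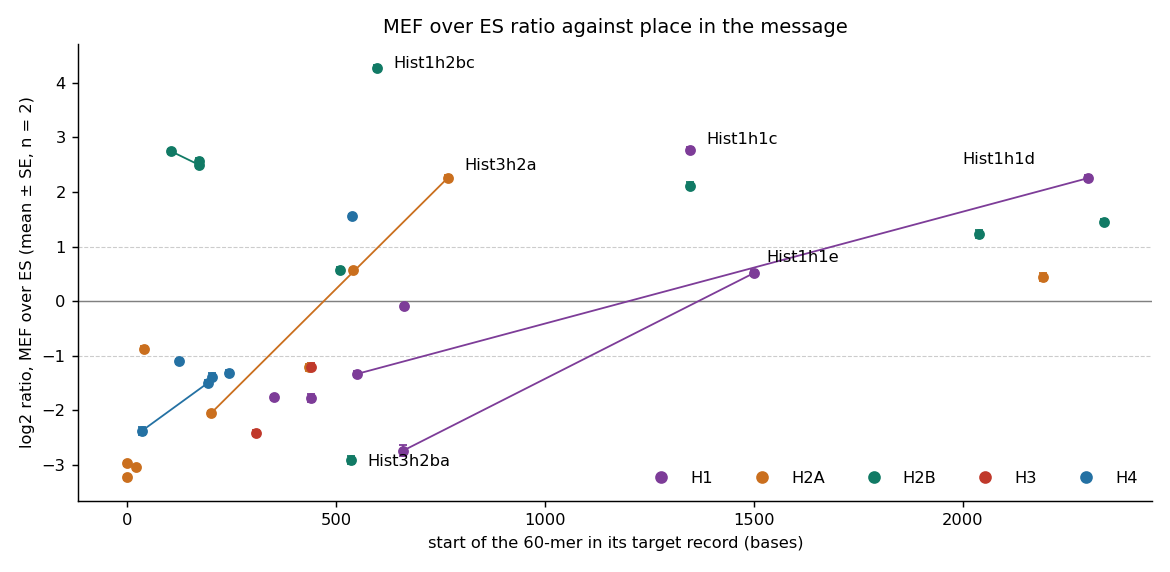
Mean log2 ratio of MEFs over ES cells (vertical axis, bars are 1 SE, n = 2) against the start of each tested sense probe of a cluster gene in its target record in bases (horizontal axis), coloured by class; lines join probes of 1 gene. Hist3h2a, Hist1h1d and Hist1h1e cross 0 between body and 3′ probe, H2B body probes lie at 2.50 to 2.74, and Hist3h2ba lies at -2.91 at base 535. The Hist1h1e starts are counted in different records.

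H2B, which pairs with H2A in the nucleosome, went its own way. Of its 9 tested probes 7 rose in MEFs, 1 (Hist3h2ba) fell and 1 (Hist1h2bp) was not called. Its median was 2.05 and 2.17 on the MEF arrays, where the H4 median over both arrays was -1.35 and that of cluster H2A -1.14. These medians mix class with probe position: 6 of the 9 H2B probes were 3′ probes, against 1 of 6 for H4 and 3 of 11 for cluster H2A. Among 3′ probes alone the median was 1.34 for H2B and 0.57 for H2A, and the H4 probe was at 1.56. Unlike the other classes, H2B was high in the body too: all 3 tested body probes rose. Hist1h2bk read 2.78 and 2.71 at base 106 and 2.57 and 2.42 at base 172, and Hist1h2bm read 2.62 and 2.52. Hist1h2ba, a testis H2B, read 2.48 and 2.49, but its value on the array of iPS replicate 1 is missing. Hist3h2bb, listed in RefSeq as a pseudogene, read 2.36 on the array of MEF replicate 2, the only MEF array with a value. The 5 body probes thus lay within 2.36 to 2.78, which may not be 5 measurements of different messages. All but the Hist1h2bk probe at base 106 share sequence, and that probe is of the same gene as the probe at base 172. No difference between classes was tested.

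H1 genes fell or rose with the place of the probe. Hist1h1a and Hist1h1b, replication-dependent linker histones of dividing cells, fell in the body, to -1.79 and -1.73 and to -1.90 and -1.63. The only Hist1h1c probe lies at base 1346 and starts as follows.
Hist1h1c 3′ (chr13:23747614-23747673, plus strand), first 30 bases: tacacttgctttgccttattttgatcagca
It read 2.70 and 2.85, 6.84 times the ES level, and no body value of that gene stands beside it. H1f0, the linker histone of resting and differentiated cells, is a separate gene with its own polyadenylated message. Its probe at base 1015 read -1.44 and -1.58 in MEFs and fell, while its probes at bases 1288 and 1294 read -0.60 to -0.78 and were not called. All 3 H1f0 probes were called lower in iPS cells, with mean ratios of -1.03, -1.22 and -1.08, the first of them short of 2-fold without iPS replicate 1. H1f0 was thus no higher in MEFs than in ES cells at any of its probes.

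**Figure D3:**
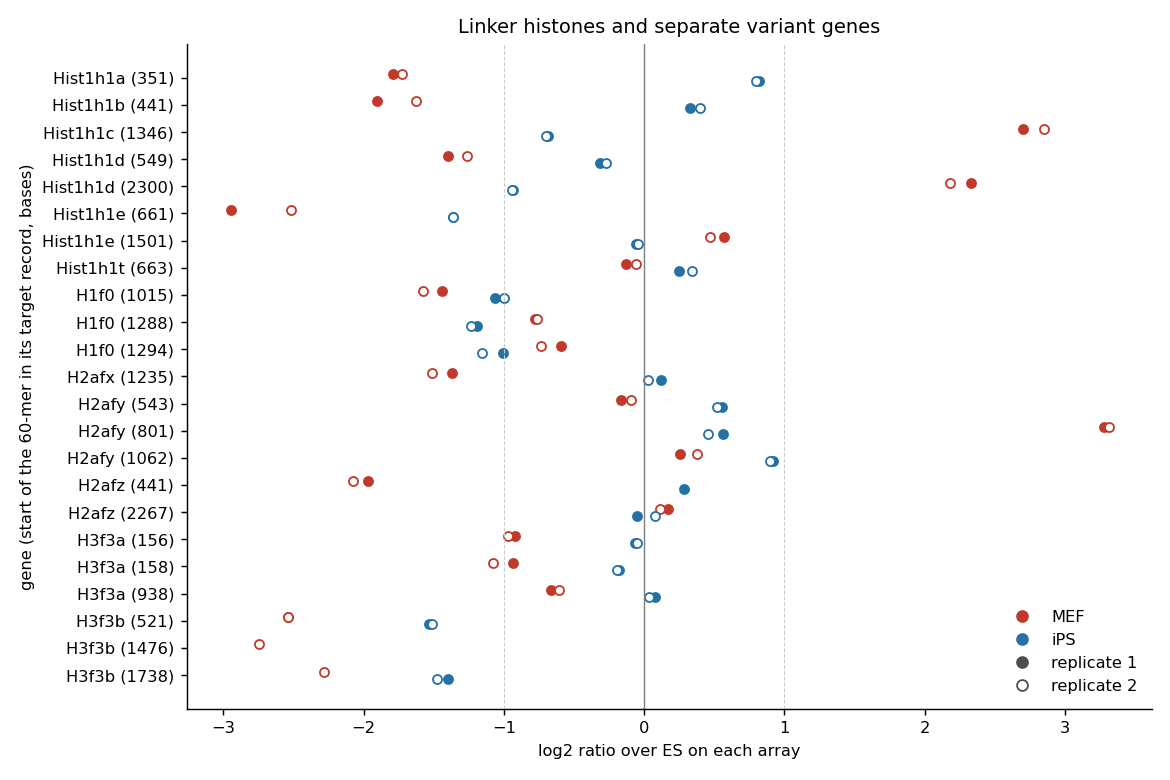
Log2 ratio over ES cells (horizontal axis) on each array for every H1 probe and every probe of the separate variant genes, MEFs red and iPS cells blue, filled for replicate 1 and open for replicate 2; rows give the gene and the start of the probe in its record, and a missing point is a marked spot. Hist1h1d and H2afy each have 1 probe above 2 in MEFs and at least 1 below 0.

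Among the separate variants other than H1f0, 3 of 8 tested probes fell in MEFs and 1 rose. H2afx, the H2A variant phosphorylated at DNA breaks, read -1.37 and -1.51 and fell (-1.44 ± 0.06 SE, n = 2, limma adjusted p = 2.7e-07), although centring on the median brought it to -0.72, short of 2-fold. H2afz, the H2A variant at promoters, read -1.97 and -2.08, with 1 iPS value missing. A second probe named H2afz matches another chromosome and was not well above background. H3f3b and H3f3a are 2 genes for the same protein, the replacement histone H3.3. H3f3b fell to -2.54 on both MEF arrays at base 521, and its other 2 probes, each with missing values, read -2.74 and -2.28. H3f3a read -0.92 and -0.97, -0.93 and -1.08, and -0.66 and -0.60 at its 3 probes, of which the second was just past 2-fold. Without MEF replicate 2 it was at -0.93, and with median centring at -0.17, a setting in which the H3f3a probe at base 938 turned to 0.27. H3f3b lay below H3f3a in the iPS cells too (-1.52 against -0.19 to 0.06). In iPS cells over MEFs, where a dye effect drops out, H3f3b was at 1.01 and the H3f3a probes at 0.89, 0.82 and 0.69. The difference between the 2 genes was not tested.

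H2afy, the gene of macroH2A1, a large H2A variant with a globular domain that is rich in silent chromatin, is spliced into alternative forms. Its probes disagreed. The probe at base 801 (chr13:56097874-56097933) read 3.28 and 3.31 in MEFs, where it was well above background, as it was in iPS cells but not in ES cells. The rise was called (limma adjusted p = 5.7e-09), with the ES side too dim for its size to be firm, and with normexp fitted over all spots the ratio was 1.70 and not called. The probe at base 543 (chr13:56114014-56114073) read -0.17 and -0.09, and that at base 1062 (chr13:56092789-56092848) 0.26 and 0.37. Both were well above background in every RNA and neither was called. In iPS cells the 3 probes read 0.45 to 0.92 with none called. The gene as a whole therefore showed no common change, and the large one was confined to 1 of its 3 probes on this array.

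In iPS cells most histone probes, like most probes of the array, were not called against ES cells. Those called were mostly falls, though not with median centring. Of the 47 tested probes, 2 rose (8.00% of all tested probes did), 11 fell (10.7% of all) and 34 were not called. With normexp fitted over all spots 1 rose and 6 fell. The median was -0.14, against -0.01 over all tested probes. The risers were Hist1h3a and Hist1h2bc. Hist1h3a read 1.50 and 1.49, 2.82 times the ES level (log2 ratio 1.49 ± 0.06 SE, n = 2, limma adjusted p = 5.2e-07). Hist1h2bc read 0.97 and 1.11, just past 2-fold, and lay at 0.97 without iPS replicate 2. The largest falls were at Hist3h2ba (-2.62 and -2.90), the Hist3h2a body (-1.74 and -1.77), Hist1h3d (-1.55 and -1.52), the Hist3h2a 3′ probe (-1.49 and -1.42) and Hist1h1e (-1.36 on both arrays). H3f3b, among the separate genes, read -1.54 and -1.51. Hist3h2a and Hist3h2ba, which lie close together on chromosome 11, were thus low in iPS cells at all 3 of their tested sense probes. Each lost its call in some setting. Hist3h2ba and the Hist3h2a 3′ probe did with normexp fitted over all spots or marked spots kept, and the Hist3h2a body did with median centring. The H4 probes lay between -0.53 and 0.08 and none was called. With median centring 7 probes rose and 4 fell. The 3 H2B body probes, Hist1h1a and the H2afy probe at base 1062 then passed 2-fold, while Hist1h3d, H3f3b, the Hist3h2a body, Hist1h2af, Hist1h2ak and 2 H1f0 probes no longer did, and among all tested probes risers went from 42.8% to 61.5% of those called. That setting left the median of all tested probes at 0.14 in iPS cells and 0.16 in MEFs, and the H4 median of the iPS cells turned from -0.47 to 0.16, so the direction of small iPS ratios depends on the scaling.

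Set against each other through the ES channel, iPS cells and MEFs differed in both directions. ES cells serve as reference in both ratios, and a dye effect of a probe drops out here. Of the 47 probes 12 were higher in iPS cells (15.4% of all tested probes) and 12 lower (17.7% of all). With normexp fitted over all spots limma called 4 higher and 0 lower, with 15 histone probes at an unadjusted p under 0.05, and with marked spots kept 5 higher and 0 lower. All 12 lower probes were 3′ probes, H2B body probes or the H2afy probe at base 801. Among body probes outside H2B, 10 of 18 were higher and none lower. The highest were Hist1h3a (2.69 ± 0.09 SE), Hist1h1a (2.57 ± 0.07), Hist1h2ak (2.20 ± 0.07), Hist1h1b (2.13 ± 0.10) and Hist1h2ai (2.09 ± 0.07). The lowest cluster probes were the 3′ ones of Hist3h2a (-3.71 ± 0.08), Hist1h1c (-3.47 ± 0.08), Hist1h2bc (-3.24 ± 0.08), Hist1h1d (-3.19 ± 0.08) and Hist2h2bb (-2.47 ± 0.09). All 10 have n = 2 a group and a limma adjusted p of at most 9.0e-07, and in each the MEF and iPS arrays do not overlap. With normexp fitted over all spots only Hist1h2ak of these 10 kept its call, and Hist1h3a was at 2.04 and Hist3h2a at -2.90. The Hist1h1d 3′ probe was not well above background in iPS cells, which makes it at least 8.31-fold lower there than in MEFs. H2afx (1.52 ± 0.08) and H3f3b (1.01 ± 0.07) were the separate variants higher in iPS cells. Hist1h1d was again called both ways, at 1.04 in its body and -3.19 at base 2300, although without MEF replicate 1 the body value was 0.97.

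Of the testis histones, 1 was dim and 2 lacked values on some arrays. Hist1h1t, the linker histone of spermatocytes, read -0.13 and -0.06 in MEFs and 0.24 and 0.34 in iPS cells, and was well above background in iPS cells alone. There it was at least 1.21-fold higher than in ES cells and at least 1.27-fold higher than in MEFs, and it was not called. It passed the filter through iPS cells alone, which favours a higher ratio there, so these bounds add no support for a rise. Hist1h2aa, a testis H2A, had values on the iPS arrays only (-0.64 and -0.57). Hist1h2ba, its H2B partner, read 0.93 on the array of iPS replicate 2, beside 0.80 to 0.87 for the mean ratios of the somatic H2B body probes. Its probe shares 35 of 40 bases with the Hist1h2bm probe and with the Hist1h2bk probe at base 172. These values stand beside germ cell markers that were higher in the iPS cells, such as Dazl at 6.88, and the relation was not tested.

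Promoters of the members were read from RefSeq (GRCm38.p6, windows of 300 bases that end 50 bases past the start, found for 36 of 42 genes) because cluster genes of different classes moved apart. Searched on both strands, the octamer ATTTGCAT, an element long known from H2B promoters, was in 5 of 7 cluster H2B genes and 6 of 11 H2A genes, and in 1.74% of all 32851 windows. It was in none of the 6 H1, 2 H3 and 5 H4 genes, and in 1 separate variant, H3f3b. CCAAT was in all 6 H1, 11 H2A, 7 H2B and 2 H3 genes and in 2 of 5 H4 genes, against 37.4% of all windows. TATAAA was in 4, 7, 4 and 1 of these and in 4 of 5 H4 genes, against 13.6%. Among the H2B genes with the octamer, Hist1h2bk, Hist1h2bm, Hist2h2bb and Hist1h2be rose in MEFs and Hist1h2ba was untested. Hist2h2bb and Hist1h2be were read by 3′ probes alone, and a further Hist1h2be window lacks the octamer. Of the 2 H2B genes with a window but no octamer, Hist3h2ba fell and Hist1h2bp was not called. Among the H2A genes, Hist1h2ab and the body of Hist3h2a have the octamer and fell, while the Hist3h2a 3′ probe rose. Hist1h2ae and Hist1h2ac also have it and were not called at their 3′ probes. Hist1h2af, Hist1h2ak and Hist1h2ai lack it and fell, although the Hist1h2ai probe may read another copy. Hist2h2aa1 lacks it and was not called. Motif and probe position are thus mixed here, and the relation of motif and direction was not tested. Shown are bases 130 to 11 before the start of genes with contrasting values, with motifs in capitals (the reverse complement of the octamer reads ATGCAAAT, and that of CCAAT reads ATTGG).
Hist1h2bk (chr13:22035691-22035810, plus strand): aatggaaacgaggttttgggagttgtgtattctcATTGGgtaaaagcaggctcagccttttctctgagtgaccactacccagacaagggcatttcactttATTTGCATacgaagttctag
Hist1h2bm (chr13:21721914-21722033, plus strand): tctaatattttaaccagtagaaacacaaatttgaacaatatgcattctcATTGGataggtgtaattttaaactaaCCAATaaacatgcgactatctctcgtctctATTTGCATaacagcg
Hist3h2a (chr11:58954555-58954674, plus strand): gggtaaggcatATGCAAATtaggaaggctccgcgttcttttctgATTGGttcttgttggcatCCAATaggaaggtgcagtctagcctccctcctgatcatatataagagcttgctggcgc
Hist1h1d (chr13:23554902-23555021, plus strand): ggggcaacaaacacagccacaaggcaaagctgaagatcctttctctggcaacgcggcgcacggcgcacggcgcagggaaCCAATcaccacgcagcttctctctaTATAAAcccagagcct

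Genes that make and process histone messages were lower in MEFs in part. Of 18 such genes, all tested by their brightest probe, 6 fell and 1 rose in MEFs, with a median of -0.84, where 12.4% of all tested probes fell and 12.8% rose. Slbp, which binds the stem-loop, read -1.71 and -1.77 and fell (-1.74 ± 0.05 SE, n = 2, limma adjusted p = 4.8e-08), and Npat, the cyclin E target that switches on histone genes, read -0.96 and -1.10 and fell. Casp8ap2 (-1.54), Eri1 (-1.02), Ccne2 (-1.47) and Pou2f1 (-2.77) were the others that fell. Pou2f1 is the octamer-binding factor Oct-1. E2f1, a driver of S-phase genes, rose in MEFs (1.30) and in iPS cells (1.96), the only call there. In iPS cells Slbp was level with ES cells (0.00 on both arrays) and Npat read -0.10 and -0.13. Against MEFs, 5 of the 18 genes were higher in iPS cells, where 15.4% of all tested probes were. They were Slbp, Casp8ap2, Cdk2, Ccne1 and Pou2f1, with Pou2f1 highest at 2.58.

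The carriers of histones fell more widely. Of 21 tested chaperone genes, 11 fell in MEFs and none rose, beside the same 12.4% and 12.8% of all probes. The largest fall was at Nasp, a carrier of H1 and H3 (-2.49 and -2.28), and the subunits Chaf1a (-1.23) and Chaf1b (-2.09) of the replication-coupled assembly factor fell too. In iPS cells, where 8.00% of all probes rose and 10.7% fell, 2 rose and 1 fell: Npm2, the egg histone store, read 1.15 and 1.29, Npm3 1.28 and 0.99, and Nap1l2 -1.78 and -1.76. Of 18 tested S-phase genes, 15 fell in MEFs and none rose, with a median of -2.08 and the largest fall at Cdt1, a replication licensing factor (-3.05 and -3.06). In iPS cells 1 of them, Gmnn, rose (1.05 and 1.04). Among 9 tested other histone and sperm chromatin genes, H1fx (1.00 and 1.91) and Prm1 (0.80 and 1.38) rose in MEFs and H2afy3 fell (-1.27 and -1.17), while the centromeric H3 gene Cenpa (1.62 and 1.64) and H2afj (1.01 and 1.04) rose in iPS cells. Fewer dividing cells and less message per cell cannot be told apart in these bulk samples. The 16 falling histone body probes outside H2B thus stand beside 15 falling S-phase genes, and their relation was not tested.

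**Figure D4:**
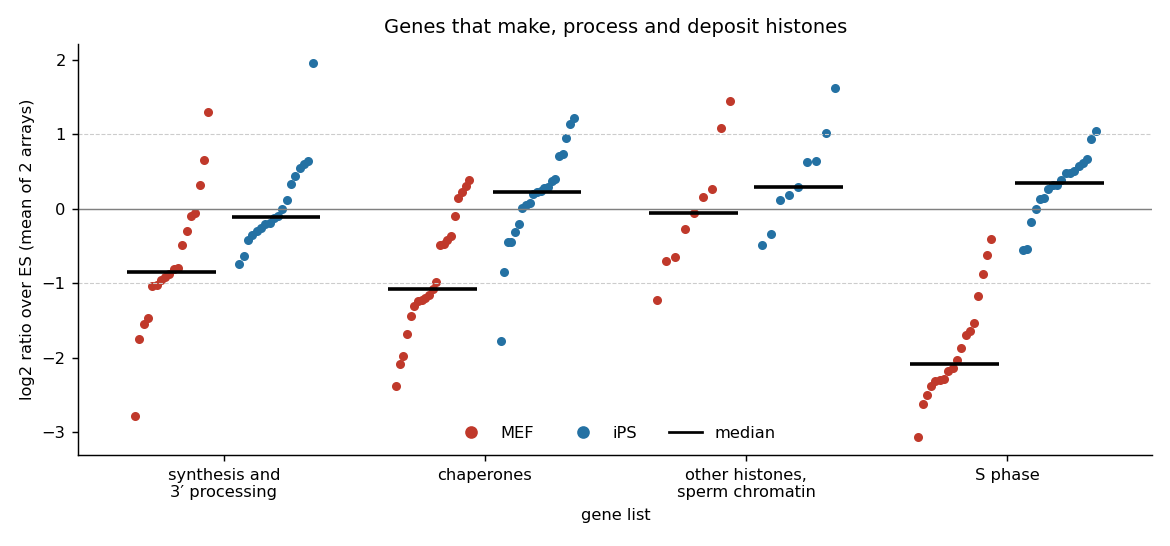
Log2 ratio over ES cells (vertical axis, mean of 2 arrays) of each tested gene in 4 lists of histone-related genes, MEFs red and iPS cells blue, with the median as a bar and dashed lines at 2-fold. In MEFs the S-phase median lies at -2.08 and the chaperone median at -1.08, and in iPS cells the 4 medians lie between -0.10 and 0.35.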

How the data were processed

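Agilent Feature Extraction, version 10.5.1.1 per the file headers, turned each scan into spot values. The deposited files give unnormalized mean spot intensity and median background intensity. They also give the scanner software's log10 ratio, background-subtracted and dye-normalized per the file headers, and the flags used here. The deposited series matrix held that ratio unchanged. Members, gene lists and the background fit were chosen with earlier results of these data known.

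Intensities were corrected with normexp (offset 50, fitted over spots without outlier marks) and loess (span 0.3, controls at weight 0) in limma 3.58.1 (R 4.3.3). Probes well above background on all arrays of at least 1 RNA (27725), with a value on all 4 arrays (24874), went into lmFit and eBayes, with 2 residual degrees of freedom and a prior worth 4.91. Calls needed 2-fold or more and a p under 0.05 after Benjamini-Hochberg adjustment. The number of arrays, 2 a group, limits the precision. The fit was tested on simulated data. Current names came from the RefSeq gene list (GRCm38.p6), through the accession for 49 of 62 probes and the name or a synonym for 13; the text keeps the array's names. Array positions are on mm8 and were not converted.

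Named were all probes of the separate variants, all H1 genes, the testis genes, the 5 largest called rises and falls of cluster genes in each comparison, genes with opposite calls, Slbp, Npat and the extremes of the lists. Other named members belong to groups of at most 5 or were chosen after their values were seen. The alternatives were other background fits, scalings, filters and probe choices, the replicate block and leaving out each array.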

Additional observations from a re-analysis of the deposited data

Results flagged for a closer look

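At 2 probes MEFs and iPS cells moved in opposite directions from ES cells, and the test of the difference itself was past the threshold, except under the settings named at the end. At Hist1h3a, the probe with the whole stem-loop, iPS cells exceeded MEFs by 2.69 on the log2 scale (-1.20 in MEFs and 1.49 in iPS cells, limma adjusted p = 1.3e-07, on the same side on 2 of 2 arrays of each group). At the Hist3h2a 3′ probe iPS cells over MEFs was -3.71 (2.26 in MEFs and -1.46 in iPS cells, limma adjusted p = 2.4e-08, likewise on 2 of 2 arrays of each group). With normexp fitted over all spots both differences missed the threshold: Hist1h3a was at 2.04 (limma adjusted p = 0.065) and the Hist3h2a 3′ probe at -2.90 (limma adjusted p = 0.058), the highest p of any alternative run. With marked spots kept the limma adjusted p was 0.064 and 0.056, and the other alternatives kept both past the threshold. The MEF ratio of Hist1h3a was then -0.55 in both settings, short of 2-fold. The Hist3h2a 3′ probe also lost both of its calls over ES cells there. It was at 1.45 in MEFs (limma adjusted p = 0.36 and 0.35) and at -1.46 in iPS cells (limma adjusted p = 0.079 and 0.076).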

How the results depend on the processing

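No called ratio of a named probe changed sign under any alternative run. With normexp fitted over all spots, 0 histone probes rose and 0 fell in MEFs, 1 rose and 6 fell in iPS cells, and 4 were higher and 0 lower in iPS cells than in MEFs; of body probes outside H2B 0 fell and of 3′ probes 0 rose in MEFs. In that setting limma called 0 of all 24874 probes in MEFs, where 2392 had an unadjusted p under 0.05, while 1499 rose and 1793 fell in iPS cells. With marked spots kept, 0 rose and 4 fell in MEFs, 1 rose in iPS cells, and 5 were higher and 0 lower in iPS cells than in MEFs; 3 body probes outside H2B fell and 0 of the 3′ probes rose. The array of MEF replicate 1 held 14 spots with a local background above 500, all marked; no other array held any. Median centring gave 14 falls in MEFs and 7 rises and 4 falls in iPS cells. The scanner software's ratio gave 6 rises in iPS cells. Leaving out 1 array at a time gave 12 rises and 21 to 22 falls in MEFs, 1 to 2 and 10 to 11 in iPS cells, and 11 to 12 each way between them. The other alternatives kept these counts within 1.5 times (quantile scaling of intensities leaves ratios as they were by its construction).

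The replicate block gave the same counts (12 and 22, 2 and 11, 12 and 12). The labels number replicates in both groups, but the 2 pairs correlated at -0.11, so the numbers were not taken to pair the arrays. Signal over background limits Hist1h1t, Hist1h1e 3′, Hist1h2be, Hist1h2ac, Hist1h1d 3′ and the H2afy probe at base 801, each dim in at least 1 RNA.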
